A study of Mus musculus with 4 samples.

Results

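The genes described here encode the proteins of the cytosolic ribosome. They were taken from the deposited count matrices by symbol: every row that begins with Rpl or Rps and a digit, together with Rpsa, Rplp0, Rplp1 and Rplp2, without rows marked -ps, the Rps6k kinases, Rps19bp1 and Rpl7l1. This gave 90 symbols of 25071, of which 37 were small subunit (40S) genes, Rpsa included, and 53 were large subunit (60S) genes. Counts for 87 of them were present in all 4 libraries. By GENCODE vM21 6 of the 90 are not protein coding, among them Rps4l, Rpl6l, Rpl37rt and Rps12l1.

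The study profiled the mouse vaginal epithelium by Drop-seq, a droplet method that captures poly(A) RNA on barcoded beads and tags each molecule with a unique molecular identifier (UMI), so that molecules and not reads are counted. The OVX group consisted of C57BL/6 mice whose ovaries had been surgically removed, and the WT group of C57BL/6 mice with no such surgery in the labels. Each group had 2 libraries, and each library pooled 5 mice. The labels give neither the animals' ages nor the time after surgery, and they leave unclear if the 2 libraries of a group were made from 1 pool of mice or from 2, so p-values measure only the spread between libraries, which may be technical. The epithelium was loosened with pronase and DNase, and all libraries went through the same dissociation.

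A ribosome is built from ribosomal RNA and about equal numbers of each ribosomal protein. The small subunit reads the mRNA and the large subunit joins the amino acids. In mammals the mRNAs of ribosomal proteins, elongation factors and some other translation proteins start with a C followed by an unbroken run of pyrimidines, called the TOP sequence (5′ terminal oligopyrimidine), through which the growth kinase mTOR regulates their translation. In the vagina the ovarian hormones drive division of the basal cells and stratification, and without them the epithelium becomes thin.

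Start regions of 8 members on which the results turn are printed to show the pyrimidine runs near their annotated starts. They are 30 bases of the gene's own strand from RefSeq, build GRCm38.p6, and the capitals mark the longest run of C and T that begins with C. In 7 of them the run has at least 8 bases, and Rps28 is shown as a member without such a run. The marked run begins 2 bases before the RefSeq start in Rps18, 8 before it in Rpl14, 15 in Rps15a, 22 in Rps25, 35 in Rps28, 36 in Rps24 and 39 in Rpl22, and 27 bases after it in Rpl4. The runs are thus not shown to be the first bases of the mRNA.
Rps15a, chr7:118116143-118116172, minus strand: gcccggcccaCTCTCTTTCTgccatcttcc
Rps18, chr17:33955648-33955677, minus strand: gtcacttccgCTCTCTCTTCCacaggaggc
Rps24, chr14:24490711-24490740, plus strand: agcggtCCTCTTTTCCTCCTCTCCagctcc
Rps25, chr9:44407684-44407713, plus strand: ccaccgggCTTCCTTTTTTTCCgacatctt
Rps28, chr17:33824581-33824610, minus strand: acgctggtgacgaCTCTgtcccgaggattc
Rpl4, chr9:64173405-64173434, plus strand: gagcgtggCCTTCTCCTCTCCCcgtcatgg
Rpl14, chr9:120571501-120571530, plus strand: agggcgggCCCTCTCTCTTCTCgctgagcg
Rpl22, chr4:152325679-152325708, plus strand: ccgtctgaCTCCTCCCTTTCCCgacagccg

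A RefSeq promoter was matched for 65 members. Within 40 bases before to 40 bases after the start, on the gene's own strand, 45 of these 65 (69.2%) held a run of at least 8 C or T letters that began with C. The same run was found in 7056 of 27025 RefSeq promoters (26.1%). The longest such run had a median of 9 bases in the members and 6 bases in all promoters. A run of letters is a description of the sequence and does not show where transcription starts in these cells.

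After cells with under 200 genes or over 20% mitochondrially encoded UMIs were left out, 1573 and 1907 cells remained in the OVX libraries and 2979 and 1987 in the WT libraries. They held 798916 and 1636888 UMIs in OVX and 5830417 and 1930040 in WT, so WT library 1 was by far the deepest. The median cell had 435 and 738 UMIs in OVX, against 1597 and 799 in WT. Mitochondrially encoded UMIs made up 9.25% and 9.86% of OVX libraries, against 4.18% and 4.00% of WT libraries, and the nuclear RNA Malat1 2.50% and 1.81%, against 0.336% and 0.465%. The defining basal markers were present in every library, but the summed level of the 7 markers used was 7898 and 8014 CPM (UMIs per 1000000 UMIs) in OVX and 42285 and 24955 in WT. Few cell barcodes were shared between libraries, from 2 for OVX library 2 with WT library 1 to 15 between the OVX libraries. In 48 of 85 members tested in whole libraries (56.5%), WT library 1 and OVX library 2 lay on the same side of their group means. The same held for 71.4% of 11495 genes tested, so it was not particular to the members. This is the reverse of the libraries' replicate numbers.

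Every kept cell held at least 1 UMI of a ribosomal protein gene, with a median of 45 and 84 per cell in OVX and 123 and 85 in WT. Because all cell types express these genes, no cells in the data give the level that free RNA alone would leave. Levels are given in CPM as above, where the total is that of the library or of the named cells. Drop-seq reads the 3′ ends of transcripts, so these levels are not divided by transcript length. They compare a gene across libraries and only loosely one gene with another.

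Recorded levels spanned a wide range, although the proteins are made in about equal numbers. The mean over the 4 libraries was above 1000 CPM for 38 members and below 100 for 30. The 10 highest members included Rps19, Rps14, Rpl4, Rpl32, Rps24, Rpl22, Rps9, Rps3 and Rplp1, and the 10 together held 36.4% and 39.2% of the members' UMIs in OVX and 43.3% and 33.8% in WT. At the other end, Rpl10, which completes the large subunit near its catalytic centre, had 18.8 and 12.2 CPM in OVX, against 3.43 and 12.95 in WT. Rpl28 was recorded at 2.50 and 10.4 CPM in OVX, against 6.86 and 15.03 in WT, which rests on 2 and 17 UMIs in OVX and 40 and 29 in WT.

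Many members share their 3′ sequence with processed pseudogenes or paralogs, and how the authors' counting treated such reads is not given in the sources used here. Shared sequence was measured on a single annotated transcript of each member, the longest of those ranked best. Of the 50-base words in its last 500 bases, at least 50% also occurred in another gene in 49 members, and none did in 16. The median shared percentage was 80.9 in the 30 members below 100 CPM and 41.5 in the 38 members above 1000. For Rpl5, Rpl9, Rpl10 and Rps12l1 it was 100. Over the 90 members the level and the shared percentage had a Spearman correlation of -0.35, where members share libraries and gene families. Levels of members with much shared sequence are therefore uncertain, among them Rps27rt (91.1%), Rpl13 (90.7%), Rps18 (88.0%), Rps25 (72.1%), Rps19 (69.4%) and Rps28 (55.4%). For Rpl4, Rps24, Rpl22, Rps3, Rps15a, Rpsa and Rpl21 the shared percentage was 0 on the transcript used. That transcript was 5179 bases long for Rps15a and 1613 for Rps24, and whether these cells use its 3′ end was not tested. A value of 0 does not show that a member is free of copies. The pseudogene symbol Rps24-ps3 had 1060 and 1211 CPM in OVX, against 357 and 445 in WT. The 264 symbols of ribosomal protein pseudogenes had 17.2 and 10.2 UMIs for every 100 member UMIs in OVX, against 7.53 and 11.02 in WT.

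In whole libraries no ribosomal protein gene was called different between OVX and WT, and their overall share of the RNA overlapped between the groups. The members together held 10.0% and 11.2% of all UMIs in OVX, against 7.84% and 10.3% in WT. WT library 1 was low, while the other 3 libraries lay close together. The mean was 10.6% ± 0.822 in OVX and 9.07% ± 1.74 in WT (SD, n = 2 each; 2-sided exact permutation test, p = 0.667). With 2 libraries a group this test cannot go below 0.333. When mitochondrially encoded UMIs were left out of the total, the shares became 11.05% and 12.4% in OVX, against 8.18% and 10.7% in WT, and no longer overlapped (exact permutation p = 0.333). The part of mitochondrial UMIs, Malat1 and depth in the OVX and WT levels of the members was not tested. In whole-library sums fewer cells of a type and less RNA per cell cannot be told apart.

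Of the 85 members with enough counts, 0 passed an adjusted p of 0.05 in edgeR's quasi-likelihood test over 11495 genes, of which 5.11% passed, 2.58% higher and 2.52% lower in OVX. At an unadjusted p under 0.05 there were 3 members with edgeR, 6 with DESeq2 and 5 with limma-trend. With edgeR 2298 of the 11495 genes tested lay under that level. Neither DESeq2 nor limma-trend called a member after adjustment. The median log2 fold change of the members was 0.13, beside -0.03 for all genes tested, with 48 members positive and 37 negative. The SE of a member's log2 fold change had a median of 0.47, so a count of 0 does not show that levels were equal. Both OVX libraries lay above both WT libraries in 17 of the 85 members, where 29.1% of all genes did, and below them in 4, where 21.2% of all genes did. The 36 small subunit members had a median of 0.01 and the 49 large subunit members a median of 0.20. Which WT library served as the control decided the calls: without WT replicate 2, 13 members were called higher in OVX (15.3% of all genes were called), and without WT replicate 1 Rps24 was called higher and Rpl27 and Rps4l lower (13.2% of all genes).

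**Figure D1:**
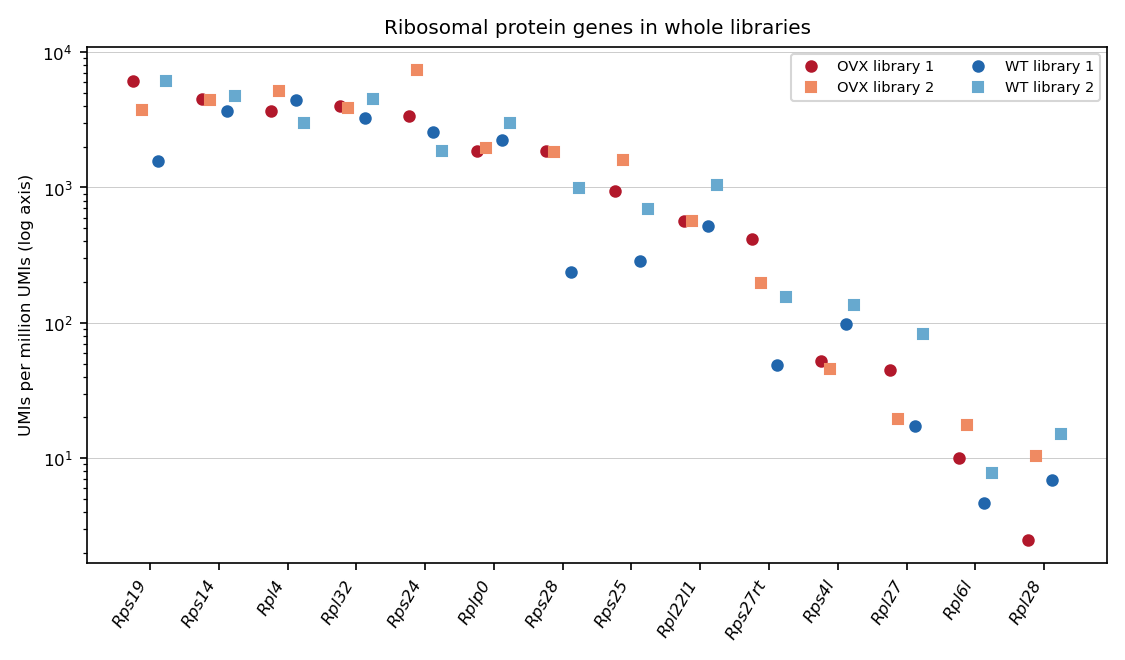
Levels of the 5 highest ribosomal protein genes and of those with the largest fold changes in each library in CPM (log axis), with OVX libraries left of WT libraries. Rps28 sits at 1863 and 1830 in OVX and at 239 and 992 in WT, whereas Rps19 is high in OVX library 1 (6092) and WT library 2 (6069).

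Among the small subunit members the largest positive fold change was that of Rps28, a small protein at the mRNA exit side of the 40S subunit. It had 1863 and 1830 CPM in OVX, against 239 and 992 in WT. The groups did not overlap, and the OVX libraries were level while the WT libraries lay far apart. Its log2 fold change was 1.45 ± 0.65 (SE; edgeR adjusted p = 0.264).

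Rps25, a 40S head protein that many viral internal ribosome entry sites need, had 948 and 1593 CPM in OVX, against 286 and 689 in WT. Rps24, whose human counterpart is mutated in some patients with Diamond-Blackfan anaemia, had 3375 and 7319 in OVX, against 2561 and 1874 in WT. Rpsa, the 40S protein also known as the laminin receptor, had 364 and 443 in OVX, against 145 and 206 in WT. In all 3 genes both OVX libraries lay above both WT libraries, and for Rps24 the gap between the OVX libraries was wider than that between the groups. Their log2 fold changes were 1.26 ± 0.55, 1.15 ± 0.53 and 1.07 ± 0.41 (SE), with edgeR adjusted p of 0.257, 0.276 and 0.200 in the same order.

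Rps27rt, a retrotransposed copy of Rps27, had 413 and 197 CPM in OVX, against 48.9 and 155 in WT (log2 fold change 1.43 ± 0.62, SE; edgeR adjusted p = 0.248). The lowest adjusted p of any member, 0.0974 in edgeR, belonged to Rps4l, which is annotated as a transcribed processed pseudogene. It had 52.6 and 45.8 CPM in OVX, against 98.3 and 136 in WT (log2 fold change -1.39 ± 0.40, SE). Its groups did not overlap, and it was the member with the largest negative fold change. Rps4x, the X-linked parent gene, had 255 and 371 CPM in OVX, against 286 and 335 in WT, and its groups overlapped.

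Among the large subunit members the positive end was led by Rpl6l, with 10.0 and 17.7 CPM in OVX, against 4.63 and 7.77 in WT (log2 fold change 1.13 ± 0.57, SE; edgeR adjusted p = 0.321). The negative end held Rpl27, Rpl28, Rpl22l1 and Rplp0. Rpl27 had 45.1 and 19.5 CPM in OVX, against 17.3 and 83.4 in WT, and its sign depended on the WT library used. For Rpl22l1 the levels were 565 and 567 in OVX, against 522 and 1038 in WT (log2 fold change -0.60 ± 0.46, SE; edgeR adjusted p = 0.523). Its paralog Rpl22, which in mice holds Rpl22l1 down, had 2805 and 5019 in OVX, against 4100.0 and 1675 in WT. Within each group the library with more Rpl22 was OVX library 2 and WT library 1.

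The stalk of the large subunit, which recruits elongation factors, is made of Rplp0, Rplp1 and Rplp2. Rplp0 had 1874 and 1960 CPM in OVX, against 2238 and 2990 in WT, without overlap (log2 fold change -0.58 ± 0.42, SE; edgeR adjusted p = 0.494). Rplp1 had 2326 and 3829 in OVX, against 3909 and 2841 in WT. Rplp2 had 1690 and 2986 in OVX, against 2326 and 1598 in WT. The groups overlapped for both Rplp1 and Rplp2. Rpl5 and Rpl11 bind the 5S ribosomal RNA and restrain the p53 inhibitor Mdm2. Rpl5 was low, with 28.8 and 23.8 CPM in OVX, against 38.9 and 31.1 in WT, and its groups did not overlap. Rpl11 was variable, with 417 and 187 in OVX, against 63.8 and 245 in WT, and its groups overlapped.

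Other paralogs and the ubiquitin fusion gene varied in both groups, and among them Rps27 and Rps3a3 had both OVX libraries above both WT libraries. Rps27l, a p53 target in human cells, had 682 and 607 CPM in OVX, against 548 and 848 in WT, while Rps27 was recorded at 38.8 and 34.2 in OVX, against 11.1 and 30.1 in WT. Rps27a, which is translated as a fusion with ubiquitin, had 47.6 and 48.9 in OVX, against 32.9 and 75.6 in WT. Rpl36al had 403 and 362 in OVX, against 257 and 699 in WT, and Rpl36a had 66.3 and 75.8 in OVX, against 35.8 and 113 in WT. Rps3a1 had 1669 and 2608 in OVX, against 1776 and 2061 in WT. Rps3a3, which is annotated as not protein coding, had 136 and 98.4 in OVX, against 60.5 and 73.6 in WT. Rpl3l, Rpl10l, Rpl39l, Rps12l1 and Rpl24 had too few counts to be tested.

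Cells were divided by marker levels into a basal gate and a differentiation gate, and cells of the basal gate are called basal cells below. The basal gate required at least 2 UMIs of 7 basal markers (Krt5, Krt14, Krt15, Col17a1, Itga6, Itgb4, Trp63) and under 0.25% of UMIs from 24 differentiation markers. The differentiation gate required at least 0.5% and at least 3 UMIs from those 24, of which 14 are markers of stratified epithelium such as Krt10 and Krt13 and 10 are markers of simple luminal cells such as Krt8 and Krt18. Cells with myeloid markers were left out of both. The gates are ranges of marker levels and not cell types: 112 and 118 OVX cells and 404 and 334 WT cells lay within 0.1 percentage points of the 0.5% limit. In OVX, basal markers made up 0.932% and 0.874% of UMIs in the basal gate, against 0.620% and 0.555% in the differentiation gate. In WT they made up 3.74% and 2.03%, against 4.41% and 2.72%. The WT basal gate thus held cells with few differentiation markers and was not enriched for basal markers over the WT differentiation gate.

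In the basal gate (875 and 1324 OVX cells, 1117 and 516 WT cells) the members held 10.5% and 11.7% of UMIs in OVX, against 7.88% and 10.6% in WT. The groups overlapped, and WT library 1 was again low (exact permutation p = 0.667). Of 84 members tested with edgeR, 0 were called, where 2.94% of 9007 genes were, 0.999% higher and 1.94% lower in OVX. At an unadjusted p under 0.05 there were 7 members with edgeR, 8 with DESeq2 and 7 with limma-trend, and none was called after adjustment. With edgeR 1468 of the 9007 genes lay under that level. The median log2 fold change was 0.33, beside -0.03 for all genes, and 58 members were positive. The median SE was 0.50. Both OVX libraries lay above both WT libraries in 24 members (23% of all genes did) and below them in 3 (24.2% of all genes did). For Rps28 the log2 fold change was 1.55 ± 0.63 (SE; edgeR adjusted p = 0.277), and for Rpsa it was 1.27 (edgeR adjusted p = 0.212). Without WT replicate 2, 18 members were called, all higher in OVX (12% of all genes were called), and without WT replicate 1 Rps24 was called higher and Rps4l lower (9.18% of all genes).

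The differentiation gate did not hold the same cells in the 2 groups. Of the differentiation marker UMIs in the gate, simple luminal markers supplied most in OVX and stratified markers most in WT. Of 126 and 161 gated OVX cells, 92 and 120 carried mainly simple luminal markers, against 6 and 7 of 1048 and 1002 gated WT cells. OVX and WT values in this gate therefore compare different cells. The members held 7.64% and 8.20% of UMIs there in OVX, against 7.96% and 10.2% in WT (exact permutation p = 0.667). edgeR called 0 of 80 members, where 6.42% of 7476 genes were called, 3.73% higher and 2.69% lower in OVX. At an unadjusted p under 0.05 edgeR had 2 members, DESeq2 0 and limma-trend 2, and the last 2 tools called none. With edgeR 1359 of the 7476 genes lay under that level. The median log2 fold change was -0.33, beside -0.10 for all genes, with 58 members negative and 22 positive. The median SE was 0.53. Both OVX libraries lay below both WT libraries in 18 members (22.3% of all genes) and above them in 4 (25.4%). Without WT replicate 2, 6 members were called, all higher in OVX (12.7% of all genes were called), and without WT replicate 1 calls included Rps18 and Rps4l, both lower (17% of all genes).

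Within OVX libraries the picture was different: most ribosomal protein genes were lower in the differentiation gate than in basal cells of the same library. The members held 7.64% and 8.20% of UMIs in gated cells, against 10.5% and 11.7% in basal cells, a ratio of 0.728 and 0.700. In WT libraries the same ratio was 1.01 and 0.961. The ratios of the groups did not overlap (exact permutation p = 0.333, the smallest that 2 against 2 libraries allow). Gated OVX cells had a median of 565.5 and 796 UMIs, against 463 and 743 in basal OVX cells. The gates ask for at least 3 differentiation marker UMIs or at least 2 basal marker UMIs, which itself favours cells with more UMIs. The median number of ribosomal protein UMIs per cell was 42.5 and 64 in gated OVX cells, against 50 and 88 in basal OVX cells. The part of depth in the lower share was not tested. Mitochondrial UMIs were about level, at 9.03% and 10.0% in gated cells, against 9.45% and 9.95% in basal cells. Malat1 was at 3.07% and 2.41%, against 2.39% and 1.68%, and its part in the lower share was not tested.

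**Figure D2:**
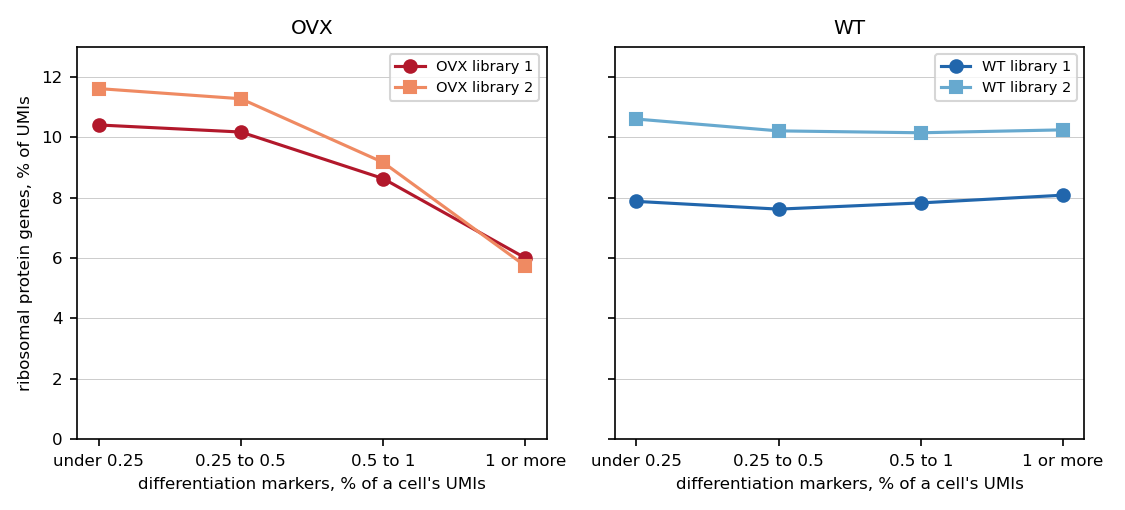
Percent of UMIs from ribosomal protein genes (vertical axis) in cells binned by their percent of differentiation marker UMIs (horizontal axis), one line per library, OVX left of WT. In OVX the share is 10.4% and 11.6% in the lowest bin and 6.01% and 5.74% in the highest, while both WT lines stay near level.

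Across 4 bins of differentiation marker UMIs (under 0.25%, 0.25 to 0.5%, 0.5 to 1%, and 1% or more) the share was 10.4%, 10.2%, 8.64% and 6.01% in OVX library 1. In OVX library 2 it was 11.6%, 11.3%, 9.17% and 5.74%. In WT library 1 it was 7.88%, 7.62%, 7.83% and 8.09%, and in WT library 2 it was 10.6%, 10.2%, 10.2% and 10.3%. In each OVX library the 2 upper bins lay below the 2 lower bins, while the bins of each WT library differed little. The top bin held 39 and 45 OVX cells, against 546 and 494 WT cells, and simple luminal markers made up 80.6% and 78.1% of its differentiation marker UMIs in OVX, against 2.28% and 2.06% in WT.

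The gated OVX cells with mainly simple luminal markers had a share of 7.06% and 7.57%, which was 0.673 and 0.646 of that of basal OVX cells. The 25 and 31 gated OVX cells with mainly stratified markers had 10.5% and 10.3%, a ratio to basal cells of 0.999 and 0.883. In WT the ratio was 1.01 and 0.962 for cells with mainly stratified markers. For the 6 and 7 WT cells with mainly simple luminal markers it was 0.894 and 1.00. These WT cells held only 489 and 476 member UMIs. Basal markers made up 4.25% and 2.23% of their UMIs, against 0.527% and 0.477% in the OVX cells with mainly simple luminal markers. The simple luminal ratios did not overlap between the groups (exact permutation p = 0.333), and the stratified ratios overlapped between the groups (exact permutation p = 0.667). With so few OVX cells with stratified markers, their level rests on 1524 and 3270 member UMIs.

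Gene by gene, edgeR called 48 of 78 members lower in gated than in basal OVX cells and 0 higher, where 5.76% of 5368 genes were called lower and 7.43% higher. The median log2 fold change was -0.51, beside -0.02 for all genes, and 72 of the 78 members were negative. The fall took in both subunits, with 22 of 34 small subunit and 26 of 44 large subunit members called. edgeR called 28 of 37 members that share under 50% of their 3′ words with other genes and 20 of 41 that share more. The median log2 fold changes of these 2 sets were close, at -0.53 and -0.48, while the median SE was 0.09 and 0.18. DESeq2 called 22 members lower. Both gates come from the same 2 libraries, so these p-values leave out whatever a library's cells share.

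Rps15a and Rps19 were among the abundant 40S members with large falls. Rps15a had 1225 and 1515 CPM in gated cells, against 1916 and 2485 in basal cells (log2 fold change -0.71 ± 0.08, SE; edgeR adjusted p = 6.48e-08). Rps19, the gene most often mutated in human Diamond-Blackfan anaemia, had 4015 and 2549, against 6577 and 4013 (-0.71 ± 0.06, SE; edgeR adjusted p = 2.04e-10). In both genes each library had its lower value in the gated cells, although OVX libraries 1 and 2 differed in level.

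Rps18, a protein of the 40S head, had 2511 and 1515 CPM in gated cells, against 4051 and 2254 in basal cells (log2 fold change -0.65 ± 0.07, SE; edgeR adjusted p = 3.94e-08). Rps7 had 412 and 329, against 589 and 592 (-0.74 ± 0.15, SE; edgeR adjusted p = 7.19e-04). Both were lower in the gated cells of each library. Rps27rt fell by 0.68 on the log2 scale as well (SE 0.22, edgeR adjusted p = 0.0351), and much of its sequence is shared.

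Among the 60S members Rpl4, an early assembly protein that lines the exit tunnel, had 2705 and 3385 CPM in gated cells, against 3858 and 5458 in basal cells (log2 fold change -0.64 ± 0.07, SE; edgeR adjusted p = 3.63e-09). Rpl39, a small protein of the same tunnel, had 946 and 1574, against 1518 and 2356 (-0.63 ± 0.09, SE; edgeR adjusted p = 1.27e-06). Both were lower in the gated cells of each library. The largest fold changes belonged to scarce members. Rpl21 rested on 4 and 2 UMIs in gated cells, against 29 and 104 in basal cells (-1.69 ± 0.52, SE; edgeR adjusted p = 0.0265), and Rpl10a, with 2 and 8 UMIs against 34 and 135, fell by 1.29 on the log2 scale (SE 0.41; edgeR adjusted p = 0.0321).

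All 10 of the highest members were among those called lower. Rps24 had 2426 and 5222 CPM in gated cells, against 3497 and 7655 in basal cells, and Rpl22 had 2038 and 3596, against 2942 and 5268. A minority of well-counted members did not pass the test. Rpl41, which encodes the shortest ribosomal protein, had 3081 and 2285, against 3315 and 2502 (log2 fold change -0.14; edgeR adjusted p = 0.199). Rps27l had 861 and 514, against 646 and 656 (-0.04; edgeR adjusted p = 0.898), so its libraries moved in opposite directions. For Rpl22l1 the log2 fold change was -0.22 (edgeR adjusted p = 0.346) and for Rpl36al it was -0.08 (edgeR adjusted p = 0.844).

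Within WT libraries, where the gate at 1% could be used (546 and 494 cells against 1117 and 516 basal cells), no member was called lower in gated cells. edgeR called 15 of 82 members higher, where 10.3% of 8437 genes were called higher and 12.3% lower. The median log2 fold change was 0.17, beside 0.01 for all genes, and 73 members were positive. This count depended on the scaling. With library totals alone 1 member was called and the median of the members was 0.02, beside -0.14 for all genes, and DESeq2 called 0. Without cycling cells 3 members were called.

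The WT calls with the smallest adjusted p were Rplp1 and Rps21. Rplp1 had 4254 and 3031 CPM in gated WT cells, against 3794 and 2640 in basal WT cells (log2 fold change 0.34 ± 0.07, SE; edgeR adjusted p = 5.66e-05). Rps21 had 2573 and 1254.0, against 2323 and 1123.0 (0.31 ± 0.08, SE; edgeR adjusted p = 0.00167). Rps29, a zinc-binding protein of the 40S head, had the largest change among the called members (0.59 ± 0.20, SE; edgeR adjusted p = 0.0160) at 73.4 and 149 CPM, against 57.4 and 101. Rpl38, which in mouse embryos favours translation of Hox mRNAs, had 637 and 788, against 552 and 730.0 (0.32 ± 0.10, SE; edgeR adjusted p = 0.00743). All 4 genes were higher in the gated cells of both WT libraries, though the libraries differed more from each other than the gates did.

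**Figure D3:**
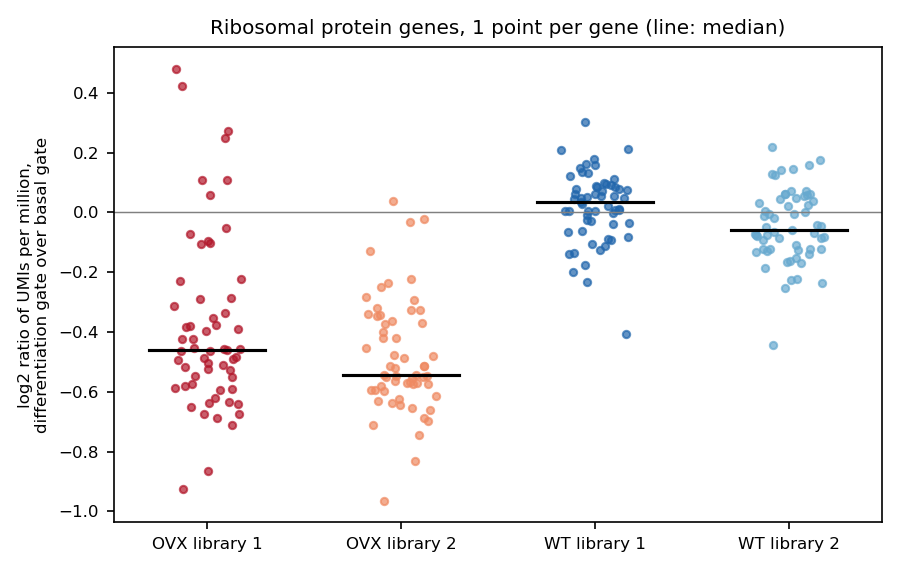
Log2 ratio of each member's level in the differentiation gate to its level in the basal gate of the same library, for the 59 members with at least 10 UMIs in both gates of all libraries; each point is a member and OVX libraries stand left of WT libraries. The medians are -0.46 and -0.54 in OVX and 0.03 and -0.06 in WT.

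With the same 0.5% gate in all libraries, the ratio of gated to basal level could be set side by side. For 59 members with at least 10 UMIs in both gates of every library, the median log2 ratio was -0.46 and -0.54 in OVX, against 0.03 and -0.06 in WT. It was below 0 for 52 and 58 members in OVX and for 20 and 37 members in WT. In cells with mainly simple luminal markers the medians were -0.55 and -0.63 in OVX, against -0.02 and 0.10 in the 6 and 7 WT cells that met the same rule. Each ratio had 0.5 UMI added to its counts, and no minimum of UMIs was set for these cells. The WT cells held only 6939 and 4477 UMIs in all, and Rpl11 had 0 UMIs in both WT libraries. The 2 WT medians are therefore poorly determined.

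The test of the difference itself, the OVX ratio minus the WT ratio in one edgeR model with 9562 genes, called 45 of 81 members lower and 0 higher. Over all genes 3.35% were called, 2.18% lower and 1.17% higher. The median of the members was -0.64 on the log2 scale, beside -0.12 for all genes. All 45 were among the 48 members called lower within OVX, and 11 of the 15 members called higher within WT were among the 45. Of the 48, Rpl10a, Rpl13 and Rps27rt were not called in this test. DESeq2, which called 62 genes in all, called 1 member, Rps15a, with 33 members at an unadjusted p under 0.05. Leaving out OVX library 1 lowered the edgeR count to 22. Since the gate holds mostly simple luminal marker cells in OVX and mostly stratified marker cells in WT, the surgery and the kind of gated cell cannot be told apart here.

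Rps15a shows the contrast. In OVX it had 1225 and 1515 CPM in gated cells, against 1916 and 2485 in basal cells. In WT the gated cells had 1535 and 1953, against 1439 and 1859 in basal cells. The gated level was below the basal level in both OVX libraries and above it in both WT libraries (difference of log2 ratios -0.94 ± 0.12, SE; edgeR adjusted p = 4.93e-08). Rps19 had 1594 and 5826 in gated WT cells, against 1579.9 and 6552 in basal WT cells, so the WT libraries moved in opposite directions (difference -0.79; edgeR adjusted p = 3.23e-08). Rpl4 was lower in gated cells of both groups, with 4237 and 2931 in WT, against 4669.8 and 3224 in basal WT cells, and its difference was -0.65 (edgeR adjusted p = 2.61e-06). Rps24 stayed at 2625 and 1899 in gated WT cells, against 2586 and 1892 in basal WT cells, and its difference was -0.73 (edgeR adjusted p = 2.76e-07).

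Cells with markers of division had a lower share of ribosomal protein UMIs than other cells in each library. The share was 8.76% and 8.51% in cycling OVX cells, against 10.0% and 11.2% in the other OVX cells. It was 7.21% and 9.53% in cycling WT cells, against 7.9995% and 10.4% in the other WT cells. The ratio was 0.873 and 0.758 in OVX and 0.902 and 0.915 in WT, but only 9 and 22 OVX cells were cycling, against 515 and 227 WT cells. The few cells with myeloid markers had 6.41% and 6.04% in OVX and 6.22% and 8.14% in WT.

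Other genes of translation were examined beside the members. Of 23 tested genes outside the family that are known to carry the TOP sequence or to act in elongation, 10 were called lower by edgeR in the gated cells of OVX libraries and 0 higher, where 5.76% of all genes were called lower and 7.43% higher. Their median log2 fold change was -0.46, and DESeq2 called 3. Gas5, a non-coding host gene of small nucleolar RNAs, had 1298 and 1251 CPM in gated OVX cells, against 2546 and 2575 in basal OVX cells (-1.03 ± 0.08, SE; edgeR adjusted p = 1.45e-11). Npm1, a nucleolar chaperone of ribosome assembly, had 667 and 698, against 1159.9 and 1228 (-0.83 ± 0.11, SE; edgeR adjusted p = 6.17e-07). Snhg1, another such host gene, fell by 1.64 on the log2 scale (edgeR adjusted p = 0.00556). Eef1a1, the elongation factor that delivers tRNAs, had 1068 and 2127, against 1465 and 3129 (-0.54 ± 0.08, SE; edgeR adjusted p = 4.22e-06). All were lower in the gated cells of both OVX libraries. In the test of the difference between OVX and WT, edgeR called 11 of 24 such genes lower and 0 higher, where 2.18% of all genes were called lower and 1.17% higher, and DESeq2 called 0, with 6 at an unadjusted p under 0.05.

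Mitochondrial ribosomal protein genes, which encode the separate ribosome of mitochondria, did not share this pattern. Of 70 tested in OVX libraries, 34 were positive and 36 negative between gated and basal cells, with a median log2 fold change of -0.01. edgeR called 0 of them, with 6 at an unadjusted p under 0.05, and DESeq2 called 0, with 0 at that level. With edgeR 1318 of all 5368 genes were at that level. Their median SE was 0.39, against 0.10 for the cytosolic members, so the count of 0 does not itself show equal levels. In whole libraries 73 of 77 were negative in OVX relative to WT, with a median of -0.71, beside -0.03 for all genes and 0.13 for the cytosolic members. Both OVX libraries lay below both WT libraries in 36 of the 77, where 21.2% of all genes did. In whole libraries edgeR called 0 of them (13 at an unadjusted p under 0.05, where 2298 of all 11495 genes were). DESeq2 and limma-trend called 1 each. Summed markers of division stood at 680 and 891 CPM in OVX, against 4701 and 3743 in WT, myeloid markers at 866 and 462, against 121 and 135, and fibroblast markers at 210.3 and 193, against 1.37 and 26.9. Their part in the mitochondrial list's median was not tested.

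**Figure D4:**
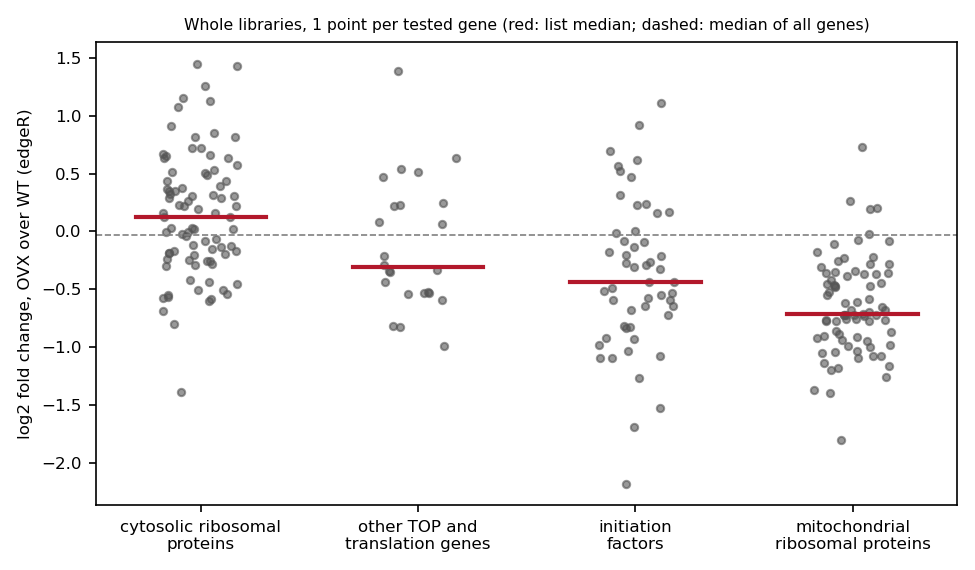
Log2 fold changes of OVX over WT in whole libraries for the cytosolic ribosomal protein genes and 3 related lists, one point per gene with the median marked. Mitochondrial ribosomal protein genes have a median of -0.71 and initiation factors one of -0.44, against 0.13 for the cytosolic members.

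Initiation factors, which load ribosomes on mRNAs, had a median log2 fold change of -0.44 in whole libraries, with 39 of 52 negative and 1 called by edgeR, where 5.11% of all genes were, and 2 by DESeq2. edgeR's call was Eif2b2, a subunit of the factor that recharges eIF2, with 30.04 and 24.4 CPM in OVX, against 112 and 111 in WT (-2.18 ± 0.40, SE; edgeR adjusted p = 0.0233). Of 16 tested genes of mTOR signalling and its translational targets edgeR called 1, a share near that of all genes, and DESeq2 2. Deptor, an inhibitor of mTOR, had 41.3 and 31.8 CPM in OVX, against 8.75 and 8.29 in WT (1.94 ± 0.43, SE; edgeR adjusted p = 0.0446). The groups did not overlap for either gene. Both calls were lost with the replicate number as a block, at edgeR adjusted p of 0.057 for Eif2b2 and 0.095 for Deptor. Eif2b2 was also lost when libraries were thinned to the smallest total (0.0527). Deptor was lost with totals of the members (0.0582) and at most 10% mitochondrial UMIs (0.0508). Both were lost without either OVX library, with log2 fold changes of -2.26 and -2.11 for Eif2b2 and 1.82 and 2.05 for Deptor. Between gated and basal OVX cells the initiation factors had a median of -0.24. edgeR called Eif3f and Eif3a lower of 45 and 0 higher, where 5.76% of all genes were called lower and 7.43% higher. DESeq2 called 0. Eif3e, Eif3f, Eif3h, Eif3k, Eif3m and Eif4b are also in the list of other TOP and translation genes, and Eif3f is among the calls of both lists. Of 6 mTOR genes tested there edgeR called 0, with 2 at an unadjusted p under 0.05 (1318 of all 5368 genes were), and DESeq2 called 0.

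The pseudogene symbols were tested in the same fits, and no test set a copy against its parent. In whole libraries 140 of 172 tested were positive in OVX relative to WT, with a median of 0.46. edgeR called 0 (11 at an unadjusted p under 0.05, where 2298 of all 11495 genes were), DESeq2 2 and limma-trend 0. Between gated and basal OVX cells 14 of 75 were called lower by edgeR and 0 higher, where 5.76% and 7.43% of all genes were, with a median of -0.59, and DESeq2 called 1. The most abundant, Rpl14-ps1, had 2651 and 2460 CPM in OVX, against 724 and 1627 in WT. Its parent Rpl14 had 2616 and 2515 in OVX, against 1768 and 1891 in WT, so the copy's rows hold about as many UMIs as the gene itself in OVX. Reads of a gene and of its copies cannot be told apart in these files.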

How the data were processed

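The authors deposited 4 matrices of raw UMI counts, 1 per library, with genes in rows and cell barcodes in columns. The submitters' processing notes name Seurat 2 and the build mm10; for the aligner, the annotation and multi-mapped reads nothing was given in the sources used here. Members and gene lists were chosen with earlier results of these data known. Barcodes with at least 200 genes and at most 20% mitochondrially encoded UMIs were kept. Doublets were not called and remain.

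Counts were summed per library, or per library and gate, and tested with edgeR 4.0.16 (quasi-likelihood, TMM scaling, low-count filter, Benjamini-Hochberg adjustment over all genes, threshold 0.05) in R 4.3.3. Only the libraries compared entered a fit. Within-group layer fits had the library as a block, and the difference of layers was an interaction term. DESeq2 1.42.0 and limma 3.58.1 were alternatives. Shares were compared with exact permutation tests (scipy 1.17.1). The planned differentiation gate (at least 1%) held 39 and 45 OVX cells, under the minimum of 50, so the gate of 0.5% was used for OVX, chosen after seeing the data. Gates left out cells with at least 3 myeloid marker UMIs that made up at least 0.5% of their UMIs. Cycling cells had at least 3 UMIs and 1% from 24 division markers. The fits were tested on simulated data. Figures were drawn with matplotlib 3.10.9.

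Transcript 3′ sequence, used only for shared words, gene positions and biotypes came from GENCODE vM21, and start regions from RefSeq, GRCm38.p6. Members were named by a rule: the 10 highest, the 5 highest and 5 lowest whole-library fold changes, up to 10 calls per direction and comparison, paralogs, stalk, 5S-binding and ubiquitin fusion genes, and up to 4 genes per list. Rpl10, Rpl14, Rpl41 and Eef1a1 and the start regions were chosen after their values were seen. Levels of scarce genes rest on few UMIs, which limits their precision. Some members that the rule names are not reported here.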

Additional observations from a re-analysis of the deposited data

Results flagged for a closer look

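The gated-to-basal ratio differed between OVX and WT for 45 members by the edgeR interaction test, all with the OVX ratio below the WT ratio. The 10 with the greatest difference on the log2 scale were Rpl21 (-2.00), Rps15a (-0.94), Rps7 (-0.91), Rpl39 (-0.88), Rps18 (-0.82), Rplp2 (-0.81), Rpl35a (-0.79), Rps19 (-0.79), Rpl37a (-0.78) and Rpsa (-0.78). What singled them out is the test of the difference itself, with edgeR adjusted p from 3.23e-08 for Rps19 to 0.0394 for Rpsa. Rpl21 had 4 and 2 UMIs in the gated OVX cells, so its size is poorly determined. In OVX the gate held mainly cells with simple luminal markers and in WT cells with stratified markers, and the part of this in the difference was not tested gene by gene.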

How the results depend on the processing

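No member was called between OVX and WT in whole libraries, in the basal gate or in the differentiation gate under the other scalings, no filter on low counts, thinning, DESeq2 or limma-trend. Other cell thresholds were run in whole libraries, other gates and the removal of cycling cells in gated cells, also with 0 calls. The same held with the replicate block, which called 0 in each of the 3 comparisons (1, 2 and 0 members at an unadjusted p under 0.05). The replicate numbers are not known to pair the libraries, and deviations of same-numbered libraries correlated at -0.57 over 11495 genes. With 2 libraries a group this correlation cannot show how the libraries were paired. A crossed replicate block, added after seeing the data, called 13, 17 and 3 members in these comparisons. In whole libraries the 13 were of 85 members, where 15.2% of all genes were called higher and 15.1% lower. The share of all genes called in the gates is not given here, so the 17 and 3 calls show nothing particular to the members. Leaving out 1 library gave 0 to 13 calls in whole libraries, 0 to 18 in the basal gate and 0 to 6 in the differentiation gate, where the remaining lone library is assumed to vary like the other group. The high counts came without WT replicate 2. Rpl27 turned round: its log2 fold change ranged from -1.57 without WT replicate 1 to 0.62 without WT replicate 2. The 15 WT calls became 1 with library totals only, 9 with no filter on low counts, 0 with DESeq2, 3 without cycling cells, 4 with stricter gates and 9 with the looser gate. The 48 OVX calls became 22 with DESeq2. The 45 calls of the difference became 1 with DESeq2 and 22 to 48 with 1 library left out. In the gate of 1% the OVX share was lower by -3.29 percentage points, against -1.16 with the gate of 0.5%. The whole-library medians of members and of all genes were 0.13 and -0.03, and they became 0.26 and 0.10 with library totals, 0.37 and 0.22 with totals that leave out mitochondrially encoded genes and Malat1, and -0.04 and -0.16 with totals of the members themselves. The cause of these changes was not tested. Single members had 358 alternative values, of which 275 kept direction and side of the threshold, 71 fell below it, 11 rose past it and 1 reversed. Stricter differentiation gates in OVX (6 and 5 cells) and fits of layers within 1 group without a library (no residual degrees of freedom) were not run. Depth limits the scarce members: 30 had a mean under 100 CPM, and 5 could not be tested.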
